A study of Mus musculus with 2 samples.

Results

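Axin2, Nkd1, Notum, Wif1, Sp5, Rnf43 and Znrf3 are 7 genes known as targets of Wnt signalling whose products dampen it. They were taken by their symbols from the 31053 genes counted, and each symbol named 1 gene in both libraries. Their transcripts were counted as unique molecular identifiers (UMIs, each standing for 1 captured transcript) in single cells from the upper part of the small intestine. The cells came from 2 mice of the APC group, whose genotype was Villin-CreERT2 with Apc fl/fl. In these mice tamoxifen activates a Cre recombinase, which the villin promoter drives in intestinal epithelium, to delete both floxed copies of Apc. The leukocytes of the same gut carry the floxed alleles but lie outside the reach of that promoter. Each mouse received 2 intraperitoneal injections of 2 mg tamoxifen, 24 h apart, and the segment between 5 and 15 cm was taken on day 4. The age of these mice was not given in the sources used here. Live cells, sorted by exclusion of DAPI, went into 1 droplet library per mouse (10x 3′ v3 chemistry). Both libraries belong to 1 group and no control library was analysed, so each comparison was made between cell classes of the same mice, and none shows what the loss of Apc changed.

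Wnt ligands bind Frizzled and LRP receptors and stop a destruction complex of APC, AXIN proteins and kinases from marking beta-catenin for degradation. Beta-catenin then activates genes together with TCF and LEF factors, and the genes described here are among those that feed back on the pathway. In the small intestine Wnt signalling is known for maintaining the stem and progenitor cells of the crypt, and Axin2 is widely used as a readout of it.

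Axin2 encodes a scaffold of the destruction complex and lies at chr11:108920349-108950783 on the forward strand of GRCm38. Nkd1 (chr8:88521354-88594884, forward strand) encodes an inhibitor that binds Dishevelled. Notum (chr11:120653788-120661175, reverse strand) encodes a secreted enzyme that removes the lipid of Wnt ligands, and Wif1 (chr10:121033960-121100650, forward strand) a secreted protein that binds Wnt ligands. Sp5 (chr2:70474923-70477729, forward strand) encodes a transcription factor. Rnf43 (chr11:87662722-87735539, forward strand) and Znrf3 (chr11:5276324-5444847, reverse strand) encode related membrane ubiquitin ligases that clear Frizzled from the cell surface. All 7 are protein-coding. Axin2 overlaps the antisense gene Gm11670, and Notum overlaps the antisense genes Myadml2os and Notumos. Whether the counting used strand is not given in the sources used here, so reads of these overlaps may not be told apart.

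The sequences upstream of Sp5 and Axin2 are shown because the levels of these members were the most alike of any pair across cell classes, as given below. The 250 bases before each start site come from RefSeq on GRCm38.p6, at chr2:70474673-70474922 for Sp5 and chr11:108920099-108920348 for Axin2, and both run 5′ to 3′ on the forward strand. Capitals mark forms of the TCF and LEF binding motif on either strand, searched as CTTTGAT and as CTTTGAA, then as CTTTGTT and as CTTTGTA.
Sp5: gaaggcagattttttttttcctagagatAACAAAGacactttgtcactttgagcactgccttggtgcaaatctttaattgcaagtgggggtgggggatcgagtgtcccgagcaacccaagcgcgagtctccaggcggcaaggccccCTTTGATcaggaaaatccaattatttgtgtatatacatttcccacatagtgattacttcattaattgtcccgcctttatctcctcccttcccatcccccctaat
Axin2: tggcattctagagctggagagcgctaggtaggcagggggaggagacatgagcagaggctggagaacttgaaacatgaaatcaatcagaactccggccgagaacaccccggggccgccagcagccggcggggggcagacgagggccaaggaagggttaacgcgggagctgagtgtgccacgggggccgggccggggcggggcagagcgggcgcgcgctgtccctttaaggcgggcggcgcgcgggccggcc
Sp5 held 2 such words. One, AACAAAG, lay at 222 to 216 bases before the start and reads as the third of the searched words on the opposite strand. The other, CTTTGAT, lay at 104 to 98 bases before the start, on the strand of the gene. Axin2, Nkd1, Wif1 and Rnf43 held none in this window, and Notum and Znrf3 were not among the promoters searched. At least 1 of the 4 words stood in 14.8% of the 32851 promoters of this length, and 2 or more in 1.43%. A match is a description of letters, and its use by a factor was not tested.

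The filters kept 7941 of 9645 barcodes in mouse 1 and 6957 of 8800 in mouse 2, with medians of 4381 and 2803 UMIs per cell. Of the kept barcodes, 16 occurred in both libraries. Classes came from clusters built without the 7 genes or other Wnt genes and were named by markers. Summed markers are given in CPM (UMIs in every 1000000 UMIs of a class in 1 mouse). Crypt-like cells (115 and 30 in mouse 1 and mouse 2) held the 18 crypt markers at 5231 and 6549 CPM. These markers include the Wnt targets Lgr5 and Ascl2, and 10 of them are genes of dividing cells. They stood at 243 and 311 CPM in enterocyte-like and 1885 and 1621 in secretory-like cells. Enterocyte-like cells (776 and 175) held the 14 enterocyte markers at 36059 and 88083 CPM, against 653 and 2500 in crypt-like cells. Secretory-like cells (32 and 33) joined Paneth, goblet and enteroendocrine types in unequal parts, with enteroendocrine markers at 3317 CPM in mouse 1 and 52136 in mouse 2. Leukocyte-like cells numbered 6345 and 6609. Tuft-like cells (25 and 21) held the 8 tuft markers at 1527 and 2164 CPM, but the median cell had 0% of its UMIs from them in each mouse. No tuft-like class was named with a mitochondrial limit of 10%, with no integration or with the Wnt genes kept in the clustering. With classes set per cell by markers it held 1 and 1 cells. Median UMIs per cell were 12213 and 17886 in crypt-like, 3458.5 and 2157 in enterocyte-like, 6862 and 6439 in secretory-like and 1419 and 1016 in tuft-like cells. Median mitochondrial shares were 0.0299% and 0.00665% in crypt-like and 0.0450% and 0% in enterocyte-like cells. They were 0.190% and 1.36% in secretory-like, 0.975% and 0.344% in tuft-like and 1.88% and 2.68% in leukocyte-like cells. The classes thus differed in this share, and its part in the levels below was not tested. Ptprc, which marks leukocytes, was seen in 12.2% and 20% of crypt-like, 6.70% and 2.29% of enterocyte-like, and 25% and 0% of secretory-like cells. The summed T-cell and innate lymphoid markers stood at 375 and 446 CPM in crypt-like and 125 and 160 in enterocyte-like cells. Those of plasma cells were higher and unequal between the mice, at 7202 and 593 CPM in crypt-like, 7968 and 1607 in enterocyte-like, 18040 and 1122 in secretory-like and 16036 and 5135 in tuft-like cells. All 6 acinar markers were seen in these classes in mouse 1, at 363 CPM in crypt-like and 1007 in enterocyte-like cells, and none in mouse 2. The part of RNA from these other cells in the levels below was not tested. Apc itself was seen at 58.2 and 71.5 CPM in crypt-like cells and at 55.8 and 50.7 in T-cell- or ILC-like cells. These 3′ tags do not check the deletion, since the position of the floxed part relative to them was not given.

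A single crypt-like cell of mouse 2 stood apart and bears on several results. It held 90 UMIs of the 7 genes among its 17622 UMIs, against 38 in the next highest of all kept cells, and 6 of the 7 genes were seen in it. Its counts were 18 for Axin2, 18 for Nkd1, 7 for Notum, 33 for Sp5, 2 for Rnf43 and 12 for Znrf3. The highest count in any other kept cell was 13 for Nkd1, 3 for Notum, 9 for Sp5 and 9 for Znrf3, but 24 for Axin2 and 6 for Rnf43. This cell also had 14 UMIs of Lgr5 (highest other cell 9) and 29 of Prox1 (20), with 0 of Olfm4, Mki67, Top2a and Ptprc. It supplied 39.8% of the 226 UMIs of the 7 genes in the crypt-like cells of its mouse, with 54.5% for Nkd1, 63.5% for Sp5, 75.0% for Znrf3 and 100% for Notum. Of 10 settings compared, 5 had it with crypt-like cells, 3 with secretory-like cells, 1 with enterocyte-like cells and 1 in no named class. The settings that removed high doublet scores or epithelial-like cells with Ptprc kept the classes of the main clustering. The 5 are thus not separate placements. Results of mouse 2 are therefore given with and without it where it matters, a choice made after its values were seen.

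**Figure D1:**
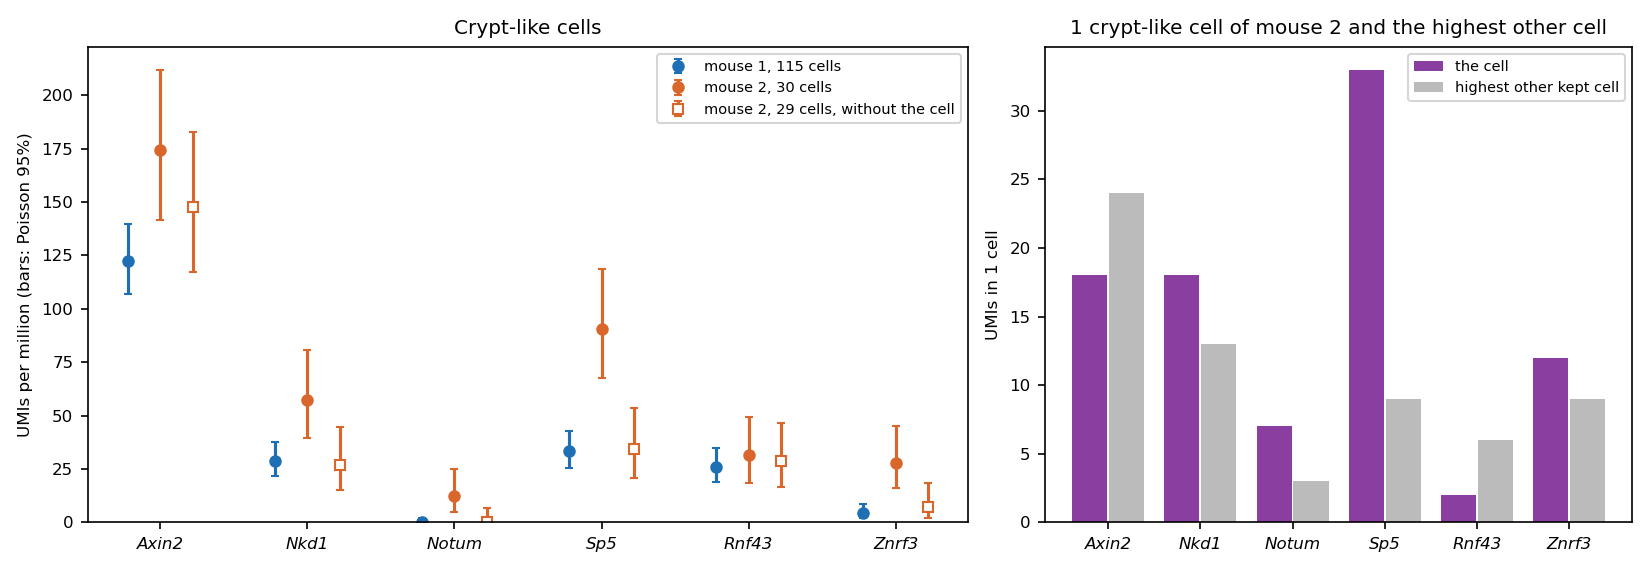
Left, CPM (y axis) of 6 genes in the crypt-like cells of each mouse, with exact Poisson 95% intervals as bars and open squares for mouse 2 without its highest cell. Right, UMIs in that cell beside the highest count in any other kept cell. Without the cell, Sp5 in mouse 2 stood at 34.2 CPM, beside 33.3 in mouse 1.

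Levels of the 7 genes are given in CPM by class and mouse, with exact Poisson 95% intervals that cover counting error only, and genes are not compared with each other. Nkd1, Sp5, Notum and Wif1 had few or no UMIs in leukocyte-like cells. Axin2 was highest in epithelial-like classes and was also seen in T-cell- or ILC-like cells, which held 18.4% of its 1202 UMIs. Rnf43 had 46.9% of its 919 UMIs in T-cell- or ILC-like cells, and Znrf3 had 89.7% of its 1217 UMIs in leukocyte-like cells, with few in enterocyte-like cells.

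**Figure D2:**
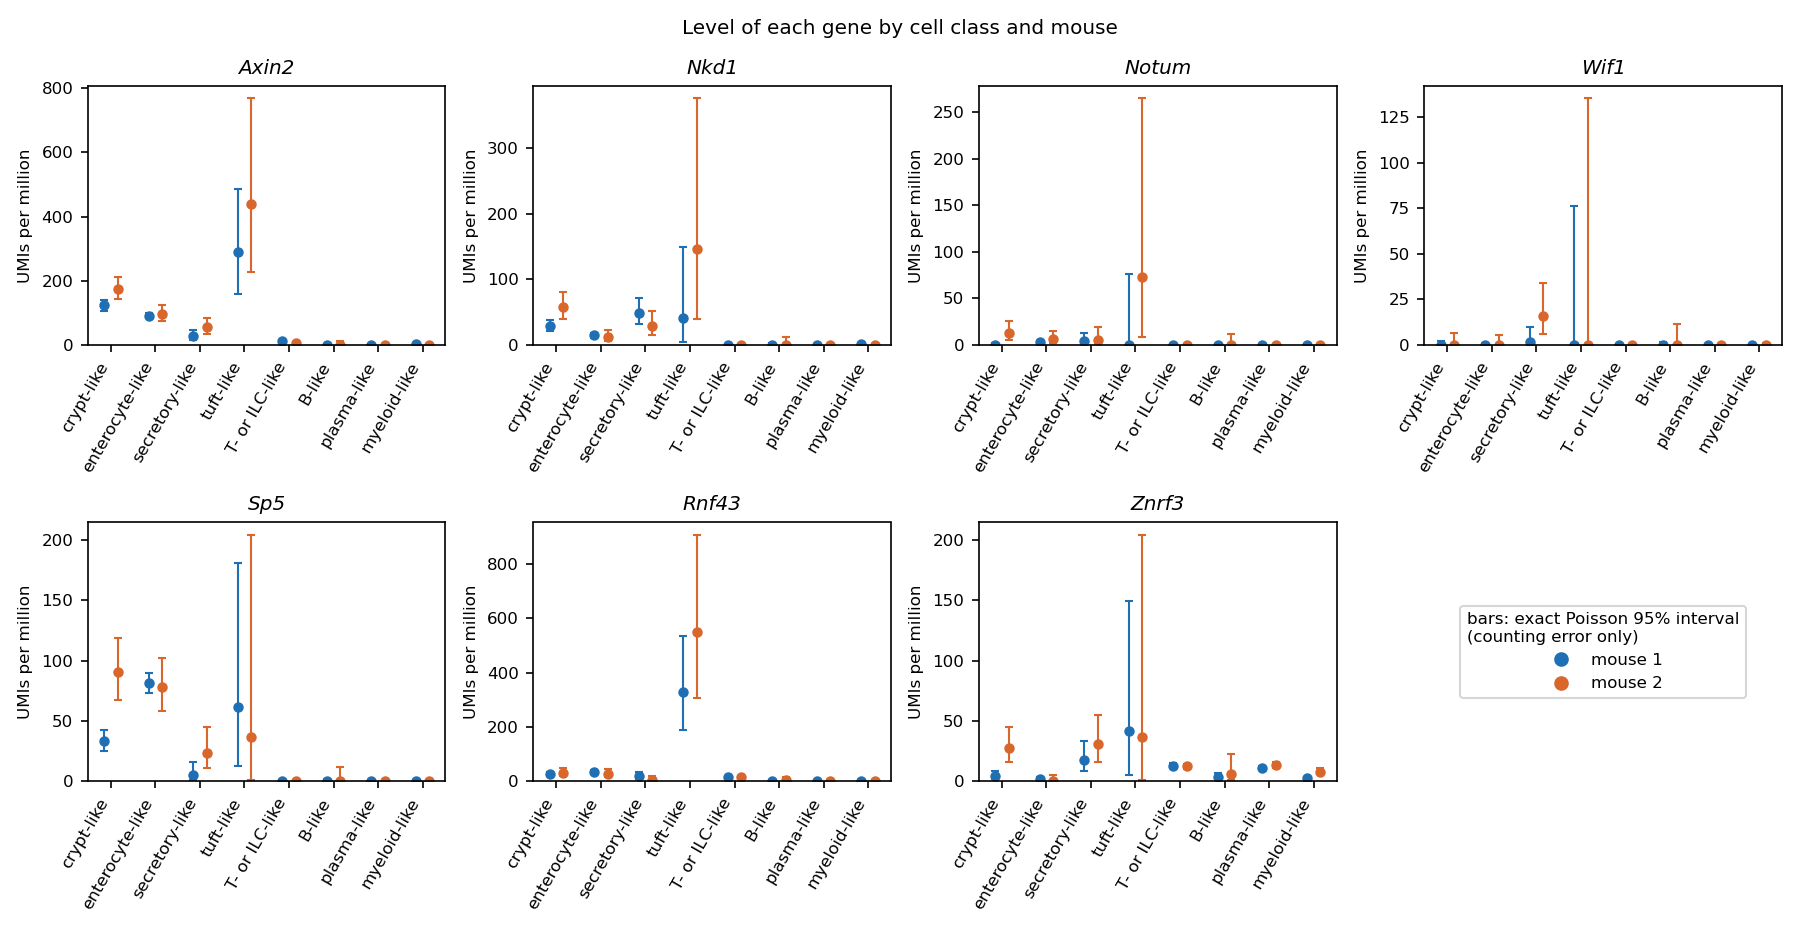
Level of each gene in CPM (y axis, linear, 1 scale per panel) by cell class (x axis) and mouse (colour), with exact Poisson 95% intervals as bars. Axin2 in crypt-like cells stood at 123 and 174 CPM, against 91.0 and 97.0 in enterocyte-like cells. Intervals are widest for tuft-like cells, whose sums were 48453 and 27266 UMIs.

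Axin2 was higher in crypt-like than in secretory-like cells in both mice, with enterocyte-like cells between. In crypt-like cells it stood at 123 CPM in mouse 1 (107 to 140, 221 UMIs) and 174 in mouse 2 (142 to 212, 100 UMIs). In enterocyte-like cells it stood at 91.0 (82.2 to 100.4) and 97.0 (75.0 to 123). Secretory-like cells were lower, at 28.8 (16.5 to 46.7) and 54.8 (33.9 to 83.8). The mouse values of neighbouring classes did not overlap in the order tuft-like, crypt-like, enterocyte-like, secretory-like, T-cell- or ILC-like, although the intervals of enterocyte-like and secretory-like cells overlapped in 1 mouse. Tuft-like cells, at 289 (158 to 485) and 440 (227 to 769), rested on 14 and 12 UMIs and did not enter the tests.

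Nkd1 was seen in all epithelial-like classes and hardly elsewhere. It stood at 28.8 (21.5 to 37.8) and 57.5 (39.6 to 80.8) CPM in crypt-like cells, and at 27.0 in mouse 2 without the cell described above. Secretory-like cells had 48.6 (32.0 to 70.7) and 28.7 (14.3 to 51.4). The order of these classes differed between the mice, and both lay above enterocyte-like cells at 14.2 (10.9 to 18.3) and 11.8 (5.07 to 23.2). The intervals of secretory-like and enterocyte-like cells overlapped in mouse 2. Leukocyte-like cells held 12 and 1 Nkd1 UMIs in all, or 0.176 and 0.0309 CPM.

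The secreted inhibitors were rare. Notum had 30 UMIs in 20 kept cells, of which 12 were enterocyte-like, 3 secretory-like, 2 tuft-like, 1 crypt-like, 1 T-cell- or ILC-like and 1 unnamed. Its level was 2.53 (1.26 to 4.52) and 5.88 (1.60 to 15.0) CPM in enterocyte-like cells. In crypt-like cells it was 0 in mouse 1, which allows up to 1.66 CPM, and 12.2 in mouse 2, where all 7 UMIs came from the single cell. Of the 20 cells with Notum, 14 also had Axin2, 9 Sp5, 9 Rnf43, 7 Nkd1 and 5 Znrf3, at a median of 10696 UMIs per cell. Wif1 had 7 UMIs in all, 1 in mouse 1 and 6 in mouse 2, in 3 secretory-like cells. Each of these 3 cells had Chga (38 to 191 UMIs), Chgb (77 to 657) and Neurod1 (2 to 34), genes of enteroendocrine cells, and none had a UMI of the goblet gene Muc2. In enterocyte-like cells a Wif1 count of 0 allows up to 0.689 and 4.41 CPM, and in leukocyte-like cells up to 0.0440 and 0.0926.

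Sp5 was the member with the largest share of its UMIs, 65.1% of 624, in enterocyte-like cells. It stood there at 81.1 (72.8 to 90.0) and 77.9 (58.3 to 102) CPM. Crypt-like cells had 33.3 (25.4 to 42.8) in mouse 1 and 90.6 (67.7 to 119) in mouse 2, or 34.2 (20.6 to 53.4) without the single cell. The crypt-like value thus lay on either side of the enterocyte-like values in the 2 mice, and below them in both without that cell. Secretory-like cells were lower at 5.40 (1.11 to 15.8) and 23.5 (10.7 to 44.6), and leukocyte-like cells held 14 and 4 UMIs.

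The ligases differed in pattern. Rnf43 was similar in crypt-like cells, at 26.1 (19.1 to 34.7) and 31.4 (18.6 to 49.6) CPM, and in enterocyte-like cells, at 34.7 (29.4 to 40.7) and 27.9 (16.8 to 43.6), with overlapping mouse values. Secretory-like cells had 18.0 (8.63 to 33.1) and 5.22 (0.632 to 18.9). Its tuft-like level was 330 (189 to 536) and 550 (308 to 907), from 16 and 15 UMIs, and lay above the other classes in both mice. Znrf3 stood at 1.61 (0.646 to 3.31) and 0 in enterocyte-like cells, where a count of 0 allows up to 4.41 CPM. Secretory-like cells had 18.0 (8.63 to 33.1) and 31.3 (16.2 to 54.7). Crypt-like cells had 4.44 (1.92 to 8.74) in mouse 1 and 27.9 (15.9 to 45.3) in mouse 2, or 7.19 (1.96 to 18.4) without the single cell.

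The counts of each class were added up by mouse and tested with edgeR's quasi-likelihood test over 10111 genes, with Benjamini-Hochberg adjusted p-values and a threshold of 0.05. Of the 7 genes, 5 passed the filter on low counts there, and Notum and Wif1 were not tested. The p-values rest on the spread between 2 mice, estimated over all classes together and without a term for the mouse. The classes were built from the same cells, though not from these genes. In crypt-like against enterocyte-like cells, 1 of the 5 was higher and 0 lower, where 18.2% and 17.2% of all genes were called higher and lower. Znrf3 was the one called, with a log2 fold change of 3.08 ± 1.00 (SE, adjusted p = 0.0408, edgeR). Without the single cell its change was 1.82 (adjusted p = 0.0855, edgeR), and it was called in 4 of 14 alternatives. Axin2 changed by 0.46 ± 0.25 (adjusted p = 0.188, edgeR) and Nkd1 by 1.43 ± 0.65 (adjusted p = 0.119, edgeR). Sp5 gave -0.63 ± 0.51 (adjusted p = 0.366, edgeR), and -1.41 without the single cell (adjusted p = 0.026, edgeR). Rnf43 gave -0.36 ± 0.46 (adjusted p = 0.581, edgeR).

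Secretory-like cells had lower Axin2 than both crypt-like and enterocyte-like cells. In crypt-like against secretory-like cells, 1 of the 5 was higher and 0 lower, against 8.74% and 9.14% of all genes. Axin2 was higher in crypt-like cells by 1.85 ± 0.28 on the log2 scale (adjusted p = 0.00674, edgeR), and was called in 11 of 15 alternatives. Sp5 was at 2.15 ± 0.66 (adjusted p = 0.0551, edgeR), and passed the threshold with the mouse as a replicate block (2.11, adjusted p = 0.0296, edgeR). Its sign was negative in 3 clusterings that moved the single cell into the secretory-like class. Nkd1 differed by -0.04 ± 0.65, Rnf43 by 1.09 ± 0.59 and Znrf3 by -0.91 ± 0.82, and none of these passed. Without the single cell Znrf3 was lower in crypt-like cells, at -2.17 (adjusted p = 0.0366, edgeR). In secretory-like against enterocyte-like cells, 1 of the 5 was higher and 2 were lower, against 16.8% and 15.1% of all genes. Axin2 was lower, at a log2 fold change of -1.40 ± 0.28 (adjusted p = 0.00677, edgeR), and so was Sp5 at -2.79 ± 0.64 (adjusted p = 0.0120, edgeR), while Znrf3 was higher by 3.99 ± 0.99 (adjusted p = 0.0162, edgeR). Within a mouse the log2 ratio of Sp5 was -3.94 in mouse 1 and -2.28 in mouse 2. The 3 calls were made in 10, 12 and 14 of 15 alternatives in the order Axin2, Sp5 and Znrf3. Nkd1, at 1.46 ± 0.68 (adjusted p = 0.135, edgeR), and Rnf43, at -1.45 ± 0.57 (adjusted p = 0.0828, edgeR), did not pass.

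Against leukocyte-like cells, most of the genes were far higher in epithelial-like classes. In crypt-like cells 4 of the 5 were higher and 0 lower, where 27.0% and 28.8% of all genes were called. Sp5 differed by 7.63 ± 0.67 (adjusted p = 9.1e-05, edgeR), Nkd1 by 7.57 ± 0.78 (adjusted p = 0.000147, edgeR) and Axin2 by 5.15 ± 0.29 (adjusted p = 3.5e-05, edgeR). Within a mouse the log2 ratio of Sp5 was 6.16 in mouse 1 and 8.73 in mouse 2. Rnf43 differed by 1.59 ± 0.45 (adjusted p = 0.0151, edgeR). Znrf3 was at -0.41 ± 0.69 (adjusted p = 0.641, edgeR), and without the single cell it was lower in crypt-like cells, at -1.67 (adjusted p = 0.0225, edgeR). In enterocyte-like cells the same 4 genes were higher and Znrf3 was lower, against 26.3% and 34.5% of all genes. Sp5 differed there by 8.26 ± 0.68, Nkd1 by 6.15 ± 0.77, Axin2 by 4.69 ± 0.28 and Rnf43 by 1.95 ± 0.43, with adjusted p-values of at most 0.00417 in edgeR. Znrf3 differed by -3.49 ± 0.87 (adjusted p = 0.00776, edgeR). The leukocyte-like sum of mouse 1 consisted mostly of plasma-like cells, with 47562795 of 68242090 UMIs. These comparisons share the leukocyte-like sums.

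**Figure D3:**
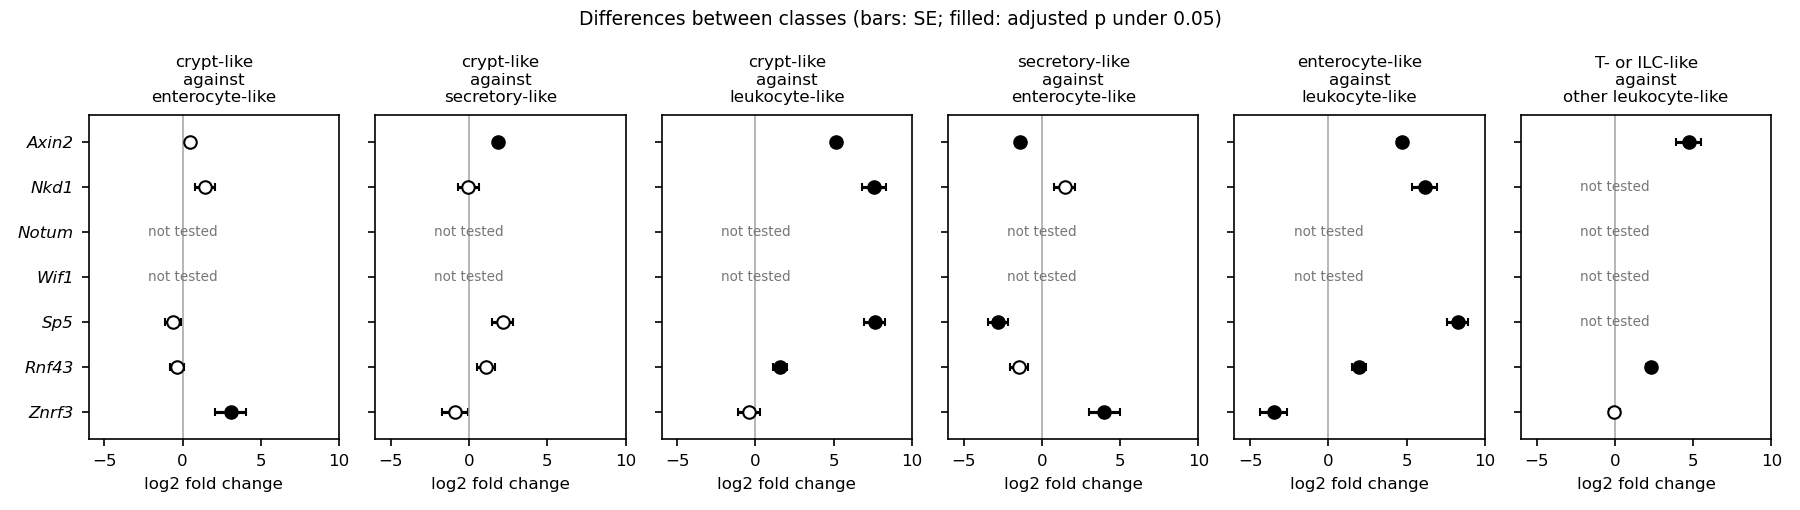
Log2 fold change (x axis) of each gene (y axis) in 6 comparisons of classes, with SE as bars and filled points for adjusted p under 0.05 in edgeR. Of the 5 genes tested, 1 was called in the first panel, 1 in the second, 4 in the third, 3 in the fourth and 5 in the fifth, and 2 of 3 in the sixth.

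Among leukocyte-like cells, Axin2 and Rnf43 were mostly a matter of T-cell- or ILC-like cells. Axin2 stood there at 10.7 (8.87 to 12.9) and 7.11 (5.82 to 8.60) CPM, at 0.484 and 0.0811 in plasma-like cells, at 1.24 and 0.823 in myeloid-like cells and at 0 in B-like cells of both mice. Rnf43 stood at 17.4 (15.0 to 20.1) and 16.4 (14.4 to 18.6) in T-cell- or ILC-like cells and at 1.93 and 2.35 in plasma-like cells. Of 3 members tested against the other leukocyte-like classes, 2 were higher and 0 lower, where 23.7% and 22.8% of 12599 genes were called. Axin2 was higher by 4.71 ± 0.79 (adjusted p = 0.00267, edgeR) and Rnf43 by 2.29 ± 0.30 (adjusted p = 0.000511, edgeR), in 6 of 6 alternatives each. Znrf3 was at -0.03 ± 0.35 (adjusted p = 0.975, edgeR). It stood at 12.7 and 12.3 CPM in T-cell- or ILC-like cells and at 11.4 and 13.4 in plasma-like cells, which held 705 of its UMIs. Within T-cell- or ILC-like cells the cluster led by Foxp3, the factor of regulatory T cells, had Axin2 at 19.6 (12.4 to 29.5) and 29.8 (16.7 to 49.2), from 23 and 15 UMIs. With both mice pooled it stood there at 22.7 CPM. Like levels were seen in a cluster led by Ifit3, at 24.6 from 3 UMIs, and in one with Il22 among its leading genes, at 17.7 from 11 UMIs. The remaining clusters of these cells ranged from 5.41 to 9.22. These clusters were singled out after their values were seen and carry no test.

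The share of cells with a UMI followed both level and depth. Unthinned, Axin2 was seen in 74.8% and 86.7% of crypt-like, 26.3% and 26.9% of enterocyte-like, 28.1% and 27.3% of secretory-like and 2.13% and 1.59% of leukocyte-like cells. Median depths were 4361 and 2786 UMIs in leukocyte-like cells. With each cell thinned to 1000 UMIs, which left out 158 and 45 shallower enterocyte-like cells, the Axin2 shares were 11.2% and 17.3% in crypt-like and 8.06% and 12.7% in enterocyte-like cells. They were 2.73% and 3.59% in secretory-like and 0.528% and 0.580% in leukocyte-like cells. The gap between crypt-like and enterocyte-like cells was thus smaller at equal depth, with the same order in both mice. Sp5 was seen in 34.8% and 36.7% of crypt-like and 28.4% and 20% of enterocyte-like cells unthinned. Thinned, its shares were 3.14% and 6.6% against 8.32% and 5.94%, so the order reversed in mouse 1. Without the single cell the crypt-like share of mouse 2 was 3.88%, so the order then reversed in both mice. Nkd1 kept its order, with thinned shares of 2.67% and 4.55% in crypt-like and 0.981% and 0.420% in enterocyte-like cells, and 2.46% in the crypt-like cells of mouse 2 without the single cell. In leukocyte-like cells the unthinned shares were 0.142% and 0.0151% for Nkd1 and 0.189% and 0.0605% for Sp5.

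At least 1 of the 7 genes was seen in 85.2% and 93.3% of crypt-like cells, 47% and 43.4% of enterocyte-like cells, 50% and 48.5% of secretory-like cells and 15.0% and 9.91% of leukocyte-like cells. At 1000 UMIs these shares were 18.8% and 26.0%, 19.2% and 21.1%, 11.8% and 10.6%, and 2.59% and 3.13%. At least 2 of the genes were seen together in 55.7% and 66.7% of crypt-like cells, 21.3% and 13.7% of enterocyte-like cells and 40.6% and 36.4% of secretory-like cells. The same held for 0.709% and 0.530% of leukocyte-like cells. The largest number in 1 cell was 6, in the single cell described above. Crypt-like cells with at least 2 of the genes had medians of 16070 and 20092 UMIs, and those with none 7683 and 6590.5.

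**Figure D4:**
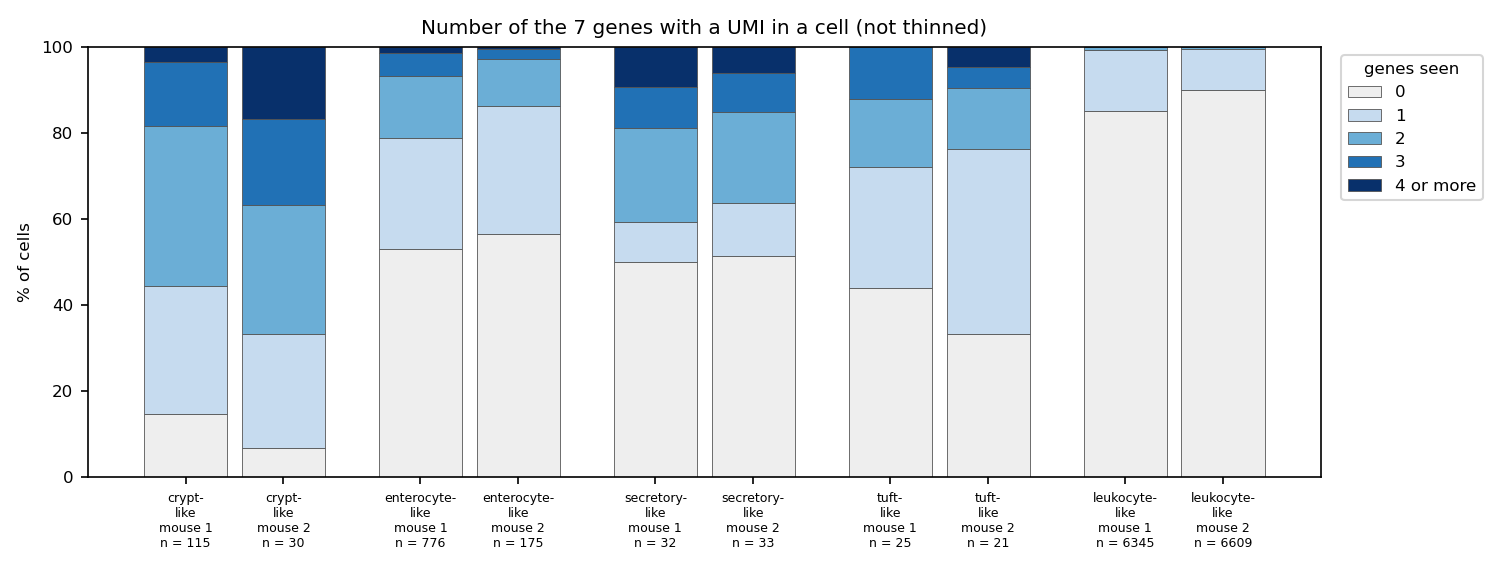
Share of cells in % (y axis) by the number of the 7 genes with a UMI (shade), for each class and mouse (x axis, with the number of cells), without thinning. The part with 2 or more genes was 55.7% and 66.7% in crypt-like cells, while leukocyte-like cells had 0.709% and 0.530%.

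Pairs of the genes met in enterocyte-like cells more often than the product of their shares. In mouse 1, Axin2 was seen in 204 and Sp5 in 220 of 776 cells, and both in 96, against 57.8 from the product. Axin2 met Rnf43 in 62 cells against 31.0, Sp5 met Rnf43 in 59 against 33.5, and Axin2 met Nkd1 in 24 against 9.99. In mouse 2 the counts were smaller and of the same direction, with Axin2 and Sp5 in 15 cells against 9.40 and Axin2 and Rnf43 in 7 against 4.83. Cells with Axin2 were deeper, at medians of 7788.5 and 3566 UMIs against 2296.5 and 1872 without it, and the part of depth in these counts was not tested. Sp5 stood at 92.5 and 89.4 CPM in enterocyte-like cells with Axin2 and at 71.0 and 69.8 in those without. In crypt-like cells Axin2 and Sp5 met in 33 cells against 29.9 in mouse 1 and in 10 against 9.53 in mouse 2. Rnf43 and Znrf3 met there in 4 cells against 1.83 and in 4 against 2.0, and Sp5 and Rnf43 in 14 against 10.4 and in 5 against 4.4. In T-cell- or ILC-like cells Axin2 and Rnf43, the members called higher there, met in 3 cells against 5.95 and in 7 against 4.22.

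Enterocyte-like cells fell into 5 sub-clusters, called E1 to E5 here. Their leading genes included Apoa1 and Apoa4 in E1, Fabp1 and Fabp2 in E2, Ada and Krt20 in E4 and Slc26a3 in E5. E3 held shallow cells with medians of 722 and 756 UMIs. E5 carried 13 of the 14 enterocyte markers, with 3 crypt markers and 1 Paneth marker, while E2 carried 2 crypt markers and E1 and E4 carried 1 each. Ptprc was seen in 13.3% of the cells of E5, against 3.57% to 5.86% in the other sub-clusters. The part of this content in the levels was not tested. Nkd1 was highest in E5, at 45.4 (32.6 to 61.6) and 63.6 (27.5 to 125) CPM in 58 and 17 cells. It was 5.77 and 0 in E1, 7.51 and 0 in E2 and 0 in both mice in E4. Notum was seen in E5 at 6.64 (2.44 to 14.5) and 15.9 (1.93 to 57.5), from 6 and 2 UMIs. Sp5 was highest in mouse 1 and mouse 2 in E2, at 120 (101 to 141) and 108 (69.2 to 161), and stood at 39.9 and 63.6 in E5. Axin2 ranged from 63.0 to 129 CPM over the sub-clusters of mouse 1 and from 81.0 to 147 in mouse 2. These are descriptions with no test, since the sub-clusters come from the same cells.

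**Figure D5:**
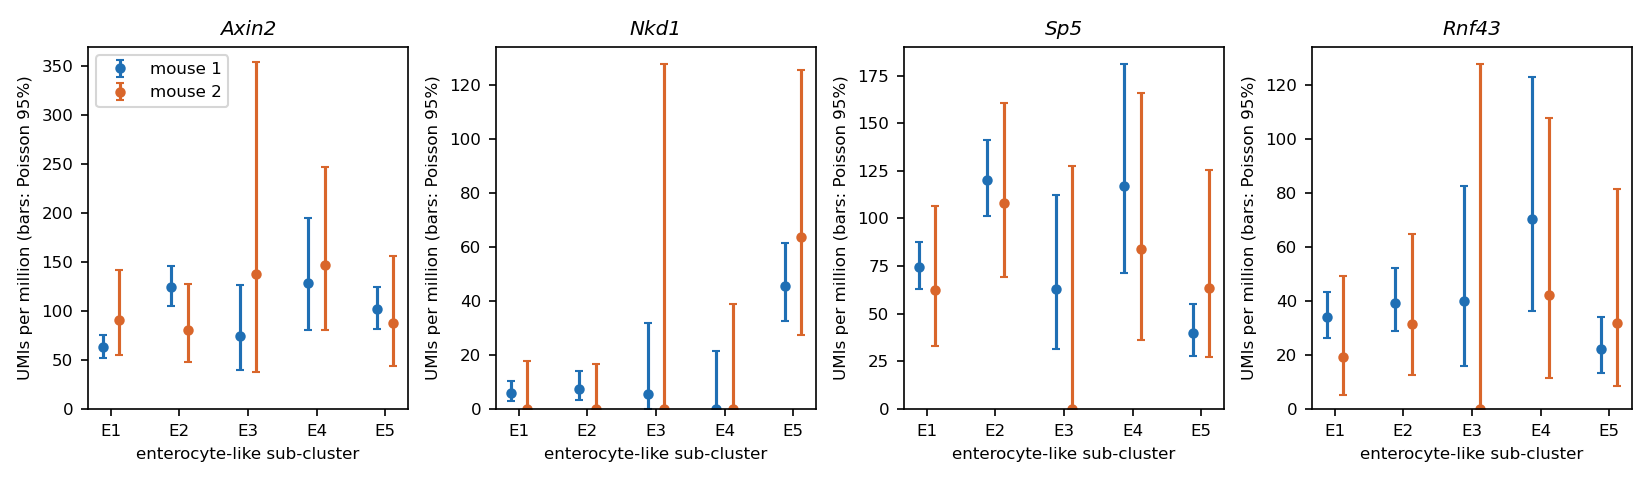
Level in CPM (y axis) of 4 genes in the enterocyte-like sub-clusters E1 to E5 (x axis) of each mouse (colour), with exact Poisson 95% intervals as bars. Nkd1 in E5 stood at 45.4 and 63.6 CPM, above E1, E2 and E4 in both mice.

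Crypt-like cells were also split by Lgr5, the receptor that marks crypt stem cells. In mouse 1, Axin2 stood at 104 (73.6 to 142) in 13 cells with an Lgr5 UMI and at 128 (110 to 147) in 102 without. In mouse 2 it stood at 221 (160 to 299) in 7 cells with Lgr5, among them the single cell, and at 151 (115 to 195) in 23 without. Without the single cell the value with Lgr5 was 140 (89.4 to 208), so that Axin2 was lower with Lgr5 in both mice, with overlapping intervals. Nkd1 stood at 31.9 with and 28.0 without Lgr5 in mouse 1, and in mouse 2 at 34.9 with, leaving out the single cell, and 23.4 without. Rnf43 stood at 29.2 and 25.2 in mouse 1 and at 29.1 and 28.6 in mouse 2, again leaving it out. Znrf3 rested on 5 UMIs with and 3 without Lgr5 in mouse 1 and on 1 and 3 in mouse 2 without the cell. The intervals of Nkd1 and of Rnf43 overlapped in both mice. Sp5 stood at 15.9 (5.85 to 34.7) with and 37.8 (28.4 to 49.4) without Lgr5 in mouse 1. In mouse 2 it stood at 200 (142 to 275) with and 36.5 (19.9 to 61.2) without. Leaving out the single cell, the value with Lgr5 there was 29.1 (9.44 to 67.8), from 5 UMIs. Enterocyte-like cells had no Lgr5 UMI. Those with Mki67 or Top2a, genes of dividing cells, numbered 26 and 8, and had Axin2 at 208 (161 to 264) and 186 (60.4 to 434) CPM, against 81.8 (73.2 to 91.1) and 93.3 (71.4 to 120) in the rest. Crypt-like cells with and without these genes had Axin2 at 122 and 131 in mouse 1. In mouse 2 those with them had 149, and of the 2 cells without them 1 was the single cell, which held all 18 Axin2 UMIs.

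Over 16 sums of 8 classes in 2 mice, the genes whose log2 levels were most like that of Axin2 among 13549 genes were Insc (Pearson r = 0.979), Noxo1 (0.973), Wwc1 (0.971), Dsp (0.969) and Arhgef5 (0.969). For the summed members they were Insc (0.978), Zfp462 (0.965), Wwc1 (0.963), Dsp (0.957) and Tead3 (0.956). Among the members, Axin2 was most like Sp5 (0.919) and Nkd1 (0.914), less like Rnf43 (0.886) and least like Znrf3 (0.251) of those with over 100 UMIs. These sums share mice, libraries and a split between epithelial-like and leukocyte-like cells, so each r is a description.

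Other genes of the pathway were counted from 6 lists. Lgr5 and Ascl2 are among the other Wnt targets but were crypt markers, so they are left out of the counts in which crypt-like cells stand. Of the 18 crypt markers, 10 are genes of dividing cells, so these counts may still not be independent of how the class was named. The part of dividing cells in them was not tested. In crypt-like against enterocyte-like cells, where 18.2% and 17.2% of all genes were called higher and lower, 5 of the 9 remaining targets were higher and 0 lower. Their median log2 fold change was 1.90, against 0.458 for the members and 0.057 for all genes. Cdca7 was higher by 3.34 ± 0.31 (adjusted p = 0.000423, edgeR). Prox1 was called too, from 24 and 35 UMIs in crypt-like and 2 and 0 in enterocyte-like cells, and 82.9% of the 35 were in the single cell. Of 14 genes of the destruction complex and relay 2 were higher and 0 lower, a share below that of all genes called higher. They were Tnks2, at 1.02 ± 0.30, and Dvl2, with 18 and 5 UMIs in crypt-like and 1 and 0 in enterocyte-like cells. Of 9 TCF factors and coregulators 0 were higher and 3 lower, with Tcf7l2 at -1.55 ± 0.38, Tle4 at -1.2 ± 0.30 and Bcl9 at -1.0 ± 0.33. Of 5 receptors none was called.

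In crypt-like against secretory-like cells, 3 of the 9 other targets were higher and 2 lower, where 8.74% and 9.14% of all genes were called. Their median was 0.0234, against 1.09 for the members. Ccnd1 was higher by 3.08 ± 0.36 (adjusted p = 0.00317, edgeR) and Myc by 3.03 ± 0.43 (adjusted p = 0.00534, edgeR), beside Axin2 at 1.85. Among the targets called lower was Ephb3, at -2.68 ± 0.79 (adjusted p = 0.0487, edgeR). Wnt3, a ligand made by Paneth cells, was lower in crypt-like cells, at -5.82 ± 0.55 (adjusted p = 0.00317, edgeR), and so was Bambi, a pseudoreceptor that dampens BMP signalling, at -4.26 ± 0.73 (adjusted p = 0.0108, edgeR). In T-cell- or ILC-like against other leukocyte-like cells, where Axin2 and Rnf43 were higher, 6 of 11 TCF factors and coregulators were higher and 3 lower, where 23.7% and 22.8% of all genes were called. Tcf7l1 was higher by 3.49 ± 0.65, Tcf7 by 3.10 ± 0.23 and Lef1 by 2.72 ± 0.58, and Tle1 was lower at -2.64 ± 0.49. Tcf7 and Lef1 are factors known for T-cell development. Of the 6 other targets tested there, 0 were higher and 3 lower, among them Cd44 at -2.37 ± 0.24 and Ccnd1 at -3.02 ± 0.35. For Ccnd1 the log2 ratio was -2.99 in mouse 1 alone and -0.91 in mouse 2 alone.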

How the data were processed

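The deposited values were raw counts of UMIs for each gene in each barcode. They came from Cell Ranger 6.1.2, run by the authors against mm10 on 1 library per mouse. Barcodes with more than 100 genes, more than 400 UMIs, under 5% mitochondrial and under 10% haemoglobin UMIs were kept. Cells were clustered in Seurat 5.3.0 (R 4.3.3) from 2000 variable features, 30 dimensions and a resolution of 0.8, with the 7 genes and the other Wnt genes left out. Clusters were named "like" a type from at least 3 of its markers, and others stayed unnamed. Scrublet in scanpy 1.11.5 called 1 and 0 doublets, which means that it had not worked, so doublets were kept and the highest 8% of scores were removed only as an alternative. Counts were summed per mouse and class, for classes of at least 20 cells in each mouse, and tested with edgeR 4.0.16 (glmQLFit, TMM), with DESeq2 1.42.0 as an alternative. Both classes of a comparison came from the same mouse, so the mouse number pairs them. The sums were 8 with 4 residual degrees of freedom, and tuft-like cells did not enter the fit. Levels are in CPM of the class in 1 mouse, with exact Poisson 95% intervals, and a count of 0 is given with the limit that 3 counts would set. Intervals cover counting error only. For likeness, genes with at least 50 UMIs were compared on a log2 scale with a pseudocount of 1. The named genes were the 7 members, the called genes of the other lists with the largest changes, and the 5 genes most like each target. The members and lists were chosen with earlier results of these data known. The tests were also run on simulated data.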

Additional observations from a re-analysis of the deposited data

Results flagged for a closer look

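UMIs of the 7 genes were also found in data that no comparison used. The 3547 barcodes removed by the filters held 142 UMIs of Axin2, 174 of Rnf43, 75 of Znrf3, 25 of Sp5, 13 of Nkd1 and 7 of Notum. That was 18.1 CPM for Axin2 and 22.2 for Rnf43 over both mice. Cells of unnamed clusters held 96 UMIs of Axin2, 71 of Sp5, 65 of Znrf3, 50 of Rnf43 and 16 of Nkd1. One of these clusters carried enterocyte markers together with Ptprc in 97.5% of its 57 and 24 cells, and had Axin2 at 79.3 and 55.0 CPM. Acinar-like cells, seen in mouse 1 alone, held 9 UMIs of Rnf43 and 4 of Znrf3. With no control library, these were set against the limit that a count of 0 allows.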

How the results depend on the processing

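The counts of the 7 genes called against leukocyte-like cells (4 and 5) and within leukocyte-like cells (2) stayed within 1.5 times under every alternative run. Calls of Znrf3 still changed. In crypt-like against leukocyte-like cells it became called lower in 4 of 15 alternatives. These were resolutions of 0.4 (-1.70) and 1.2 (-1.765), the Wnt genes kept (-1.71) and the single cell left out (-1.67). In enterocyte-like against leukocyte-like cells it lost its call with cycling genes alone (-0.84). In crypt-like against enterocyte-like cells the count of 1 became 2 with no filter on low counts. It stayed at 1 but named another gene with no integration (Sp5, -1.57), with cycling genes alone (Sp5, -2.03), without the single cell (Sp5, -1.41) and with only the compared classes fitted (Nkd1, 1.37). It became 0 with a mitochondrial limit of 10%, with resolutions of 0.4 and 1.2, with the Wnt genes kept in the clustering, without cells holding Ptprc, with classes set per cell by markers, and with tuft-like joined to secretory-like cells. In crypt-like against secretory-like cells the count of 1 became 2 with DESeq2, with no filter, with the mouse as a replicate block, with a resolution of 0.4 and without the single cell, and 0 with per-cell markers and with cycling genes alone as crypt markers. With a resolution of 1.2 and with the Wnt genes kept, the 1 gene called was Znrf3 (-2.87 and -2.88) in place of Axin2 (1.05 and 1.04). In secretory-like against enterocyte-like cells the count of 3 became 6 with no filter and 1 (Sp5) with cycling genes alone. With resolutions of 0.4 and 1.2 and with the Wnt genes kept, Axin2 and Sp5 lost their calls there. Nkd1 was called in these 3 settings (2.01, 1.79 and 1.88). Axin2 also lost its call with per-cell markers (-0.82). Rnf43 was called as well with a mitochondrial limit of 10% (-1.60) and with no integration (-1.80). The replicate block, which added Sp5 in crypt-like against secretory-like cells, changed no other call. Signs turned for Znrf3 in crypt-like against enterocyte-like cells with cycling genes alone (-0.39) and in T-cell- or ILC-like cells with doublets removed (0.50). In crypt-like against secretory-like cells they turned for Nkd1 with no filter (0.047), without Ptprc (0.20) and with per-cell markers (0.27), and for Sp5 with resolutions of 0.4 (-0.53) and 1.2 (-0.62) and with the Wnt genes kept (-0.65). With tuft-like cells joined, Rnf43 turned to -0.66 there and to 0.11 in secretory-like against enterocyte-like cells. The cause was not tested, and leaving out a mouse leaves a ratio with no test. The alternatives without the single cell, with tuft-like cells joined and with crypt markers left out of the target list were chosen after seeing the data. Depth limits Notum and Wif1 most, with 30 and 7 UMIs.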
